A study of Saccharomyces cerevisiae with 2 samples.

Results

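The genes described here are the 3 G1 cyclin genes CLN1, CLN2 and CLN3, the gene of the cyclin-dependent kinase Cdc28 that they activate, the kinase subunit gene CKS1, and the kinase inhibitor genes FAR1 and SIC1, all of budding yeast, Saccharomyces cerevisiae. They were chosen by gene symbol, and all 7 were found among the 5449 yeast genes named on the array. Each was read by 1 probe set, a group of short probes for 1 transcript, and the name endings of these probe sets mark them as specific to a single transcript. The annotation table lists no other gene that overlaps any of the 7.

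Transcript levels were measured in 2 cultures of a single strain with an S288c background. The strain is of the a mating type (MATa) and lacks BAR1, whose secreted product breaks down alpha factor, through bar1Δ::KanMX. It also carries the alleles ura3Δ0, leu2Δ0, his3Δ1 and met15Δ0, so both groups share every deletion. The treated culture was grown in rich medium and received the mating pheromone alpha factor at 50 ng/ml for 3 hours at 30 °C, after which about 90% of its cells had formed mating projections. The control culture was mock-treated without alpha factor, and its growth time and density are not stated in the sources at hand. The mock sample has the same free-text description as the treated one. That description calls the cells arrested, which goes against the title and source name of the mock sample. The groups were taken from the titles and source names, and every ratio rests on that choice. Each culture gave total RNA for 1 Affymetrix Yeast 2.0 array, which reads a single biotin-labelled sample with short DNA probes. A group of 1 array has no replicate error, so no test was possible and no p-value is given, and precision is limited by the number of arrays.

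Budding yeast commits to division late in G1, at the point called Start, when Cdc28 bound to G1 cyclins becomes active. Cln3 acts first and, with Cdc28, relieves the transcription factors SBF and MBF of their repressor Whi5, after which CLN1 and CLN2 are transcribed and their products amplify the same switch. Sic1 holds the B-type cyclin forms of the kinase inactive until Cln-Cdc28 marks it for destruction, and Far1, activated by the pheromone pathway, inhibits Cln-Cdc28 so that a cells stop in G1 before mating. The comparison therefore covers FAR1, the genes of the Cln-Cdc28 kinase that Far1 inhibits, and also CKS1 and SIC1.

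Levels are expression values on the log2 scale, and a ratio is alpha factor over mock. Each array's background level was 5.50, the 95th percentile of its probe sets taken as those of the fission yeast S. pombe. These probe sets are assumed to find no target in these cultures. A gene was called higher or lower by size alone, when its ratio was 2-fold or more, which is 1 on the log2 scale, provided that either array showed it above background. Of 5337 genes above background, 5.51% were called higher and 3.78% lower. Of the 7 genes, all of which were above background in both arrays, 3 were lower (CLN1, CLN2 and SIC1), 1 was higher (FAR1) and 3 were neither (CLN3, CDC28 and CKS1). Their median log2 ratio was -0.12, beside -0.03 over all genes above background, and their ratios ran from -3.06 to 1.25.

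**Figure D1:**
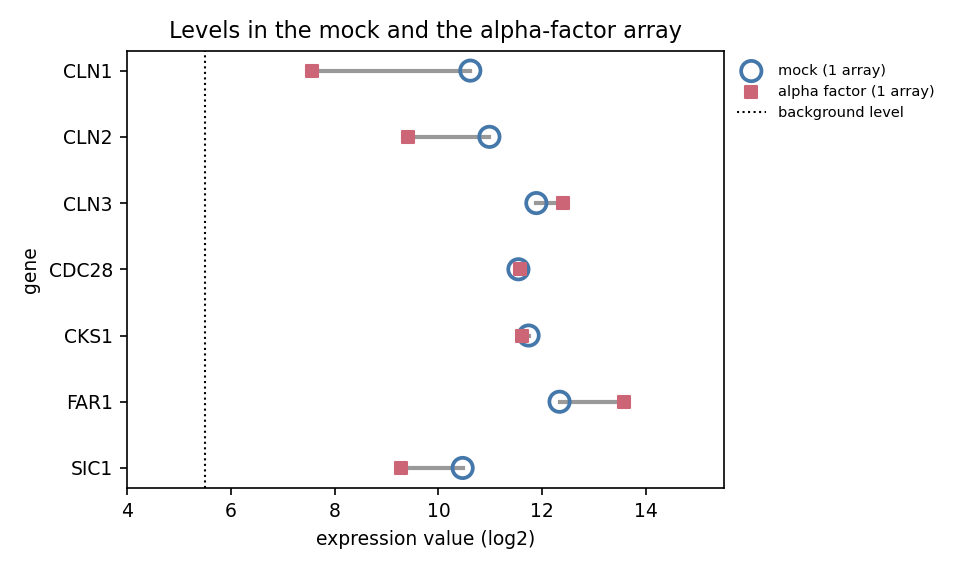
Expression value (log2, horizontal axis) of each of the 7 genes in the mock array (open circles) and in the alpha-factor array (squares), with a bar joining the pair and the background level of 5.50 as a dotted line. CLN1, CLN2 and SIC1 lie to the left with alpha factor and FAR1 to the right, the circles and squares of CDC28 and CKS1 overlap, and every point lies above background.

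CLN1 and CLN2 encode closely related cyclins that drive bud emergence and the entry into S phase. CLN1 (YMR199W) measured 10.62 in mock cells and 7.56 after alpha factor. Its log2 ratio was -3.06, an 8.33-fold lower level with alpha factor, at rank 17 from the lowest among the 5337 genes. The treated level of CLN1 lay 2.06 above background on the log2 scale. CLN2 (YPL256C) measured 10.98 in mock cells and 9.42 after alpha factor. Its log2 ratio was -1.57, a 2.96-fold lower level, at rank 92 from the lowest. Both cyclin genes were thus lower with alpha factor, and the log2 ratio of CLN1 lay 1.49 below that of CLN2, a difference behind which no replicate error stands. In RNA from whole cultures, fewer cells that hold a transcript and less of it in each cell cannot be told apart.

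CLN3 encodes the cyclin that starts the sequence and acts upstream of CLN1 and CLN2. CLN3 (YAL040C) measured 11.89 in mock cells and 12.40 after alpha factor. Its log2 ratio of 0.51, or 1.42-fold, stayed short of the 2-fold rule, and 750 genes had a ratio as high or higher, itself included. The 3 G1 cyclin genes therefore did not share a direction, and the log2 ratio of CLN3 lay 2.07 above that of CLN2 and 3.57 above that of CLN1.

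Cdc28 is the catalytic subunit shared by all the cyclins of this cycle, and Cks1 is the small protein that binds the kinase and helps it phosphorylate substrates at many sites. CDC28 (YBR160W) measured 11.54 in mock cells and 11.57 after alpha factor, a log2 ratio of 0.03. CKS1 (YBR135W) was at 11.74 and 11.62, a log2 ratio of -0.12. These log2 ratios were the smallest in size among the 7 genes, and both lay inside the range of -0.38 to 0.35 that held 95% of the S. pombe probe sets. That range describes signal near background and is not the spread between cultures, so the values do not show that these transcripts were unchanged.

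The inhibitor genes had opposite directions. FAR1 (YJL157C), whose product binds Cln-Cdc28 and also guides the polarity machinery towards the mating partner, measured 12.34 in mock cells and 13.59 after alpha factor. Its log2 ratio was 1.25, a 2.38-fold higher level, at rank 196 from the highest of the 5337 genes. SIC1 (YLR079W), whose product binds the B-type cyclin forms of Cdc28, measured 10.47 in mock cells and 9.28 after alpha factor. Its log2 ratio was -1.19, a 2.28-fold lower level, at rank 146 from the lowest. The log2 ratio of FAR1 lay 2.44 above that of SIC1. Both lie near the rule, FAR1 past it by 0.25 and SIC1 by 0.19 on the log2 scale. The treated level of FAR1 was 1.61 below the brightest value of its array, where ratios can be compressed.

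From the lowest to the highest ratio, the order was CLN1, CLN2, SIC1, CKS1, CDC28, CLN3 and FAR1. The steps between neighbours in that order were 1.49 from CLN1 to CLN2, 0.38 from CLN2 to SIC1, 1.07 from SIC1 to CKS1, 0.15 from CKS1 to CDC28, 0.48 from CDC28 to CLN3 and 0.74 from CLN3 to FAR1. Without replicates, no step in this order can be set against a spread between cultures.

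**Figure D2:**
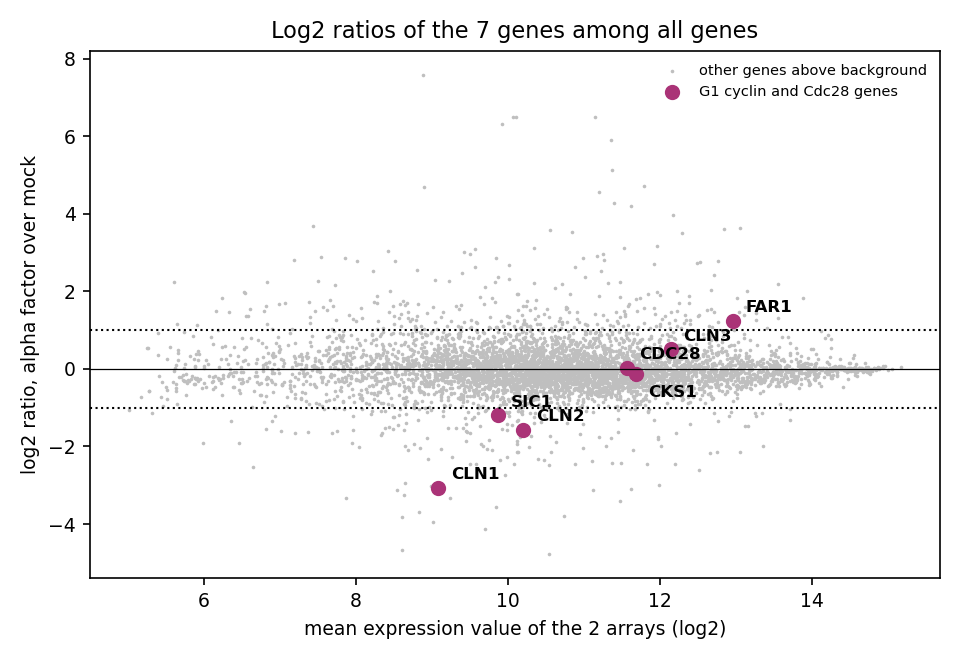
Log2 ratio of alpha factor over mock (vertical axis) against the mean expression value of the 2 arrays (log2, horizontal axis) for the 5337 genes above background, with the 7 genes as large labelled points and dotted lines at the 2-fold rule. CLN1 lies at -3.06 near the lower edge of the cloud, CLN2 lies below the lower line at -1.57, and SIC1 lies just under that line. FAR1 lies just over the upper line, and CLN3, CDC28 and CKS1 lie between the lines.

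**Figure D3:**
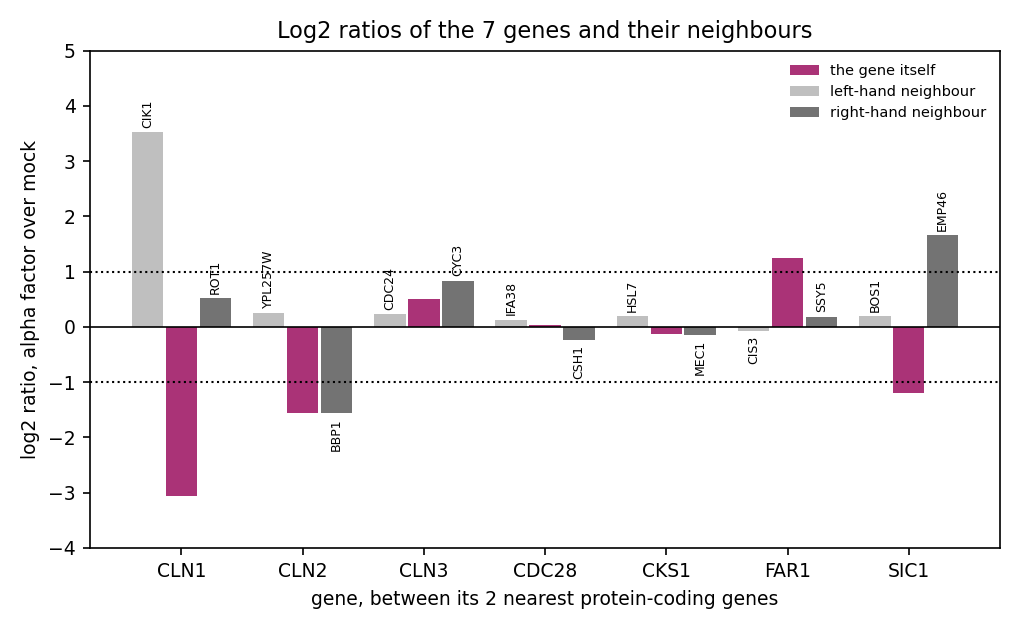
Log2 ratio of alpha factor over mock (vertical axis) of each of the 7 genes and of the protein-coding genes on its left and right in the annotation (bars from 0, neighbours labelled by name), with dotted lines at the 2-fold rule. CIK1 is high beside the low CLN1, BBP1 is as low as CLN2, and EMP46 is high beside the low SIC1, while the other neighbours lie between the lines.

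The genes next to the 7 on the chromosome were examined with their values. Of 14 neighbours, 2 were higher by 2-fold or more, 1 was lower and 11 were neither, with a median log2 ratio of 0.20. Over all genes above background, 5.51% were higher and 3.78% lower, and the median log2 ratio was -0.03. CLN1 lies directly after CIK1 on the same strand, as their systematic names YMR198W and YMR199W show. CIK1 encodes the partner of the karyogamy kinesin Kar3 and measured 9.07 in mock cells and 12.60 after alpha factor, a log2 ratio of 3.53. The 2 adjacent genes were thus far apart in opposite directions, CIK1 at 11.5-fold higher and CLN1 at 8.33-fold lower. ROT1, on the other side of CLN1, had a log2 ratio of 0.52.

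CLN2 and BBP1 face away from each other on opposite strands, so that the stretch between them lies upstream of both. BBP1, which encodes a component of the spindle pole body, measured 9.42 in mock cells and 7.85 after alpha factor. Its log2 ratio was -1.57, which is that of CLN2 to 2 decimals, and it was the lower neighbour of the 14. YPL257W, on the other side of CLN2, had a log2 ratio of 0.26. EMP46, which encodes a membrane protein of transport between the endoplasmic reticulum and the Golgi, follows SIC1 on the same strand. It measured 6.15 in mock cells, 0.65 above background, and 7.82 after alpha factor, a log2 ratio of 1.67 beside the -1.19 of SIC1.

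The other neighbours did not reach 2-fold. CYC3, a cytochrome c heme lyase gene beside CLN3, had a log2 ratio of 0.84, and CDC24, the exchange factor gene for Cdc42 on the other side of CLN3, had one of 0.23. Beside FAR1, the log2 ratios were -0.07 for CIS3 and 0.19 for SSY5. The neighbours of CDC28 were IFA38 at 0.13 and CSH1 at -0.24, those of CKS1 were HSL7 at 0.20 and MEC1 at -0.15, and BOS1 beside SIC1 was at 0.20, all as log2 ratios.

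Genes known to act with the G1 cyclins and Cdc28 were followed in 9 lists that held 79 measured genes. Of the 79, 23 were lower by 2-fold or more and 5 higher, beside 3.78% and 5.51% of all genes above background. Among the 9 lists, that of SBF and MBF targets held the largest share of lower genes. This list takes genes that the same 2 factors are known to switch on together with CLN1 and CLN2. Of its 24 measured genes, 19 were lower and 1 was higher, with a median log2 ratio of -1.76. PCL1, a cyclin gene of the kinase Pho85, measured 10.94 in mock cells and 6.27 after alpha factor, a log2 ratio of -4.67. YOX1, a homeodomain repressor gene, had a log2 ratio of -3.94, and RNR1, the large subunit gene of ribonucleotide reductase, had one of -3.42. The log2 ratios of CLN1 and CLN2 lie on either side of the median of this list.

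The gene that went against that list was PCL2, also a Pho85 cyclin gene. It measured 9.76 in mock cells and 12.73 after alpha factor, a log2 ratio of 2.97.

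**Figure D4:**
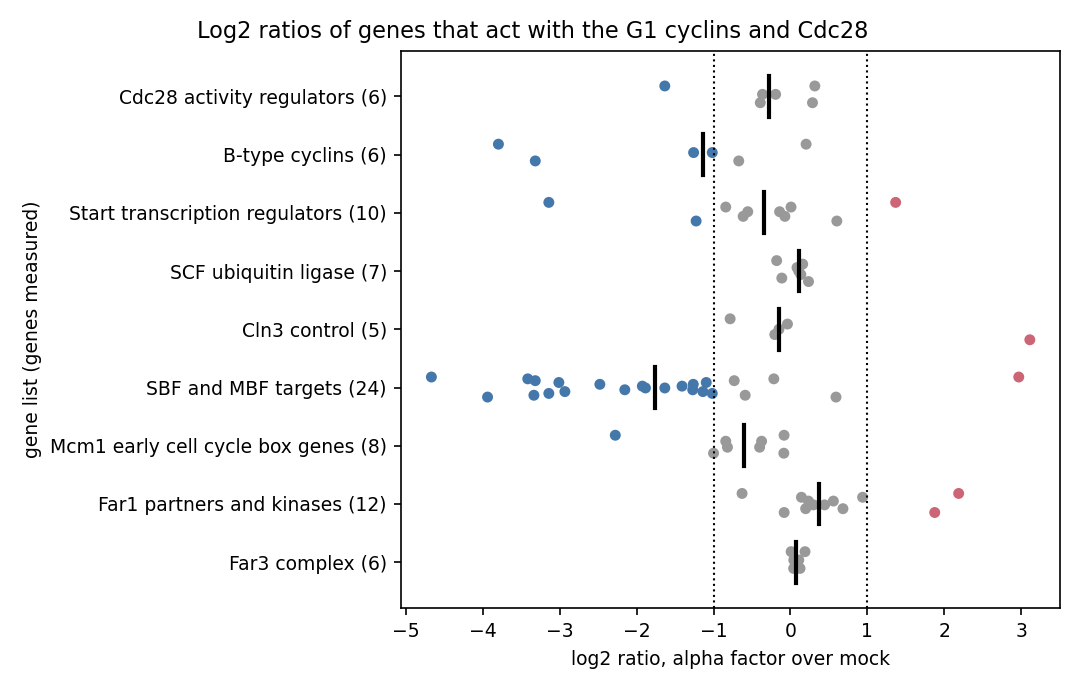
Log2 ratios of alpha factor over mock (horizontal axis) of the genes in each of 9 lists (points, with the number of measured genes in brackets), with a thick bar at the median and dotted lines at the 2-fold rule; blue points are lower and red points higher. Most of the 24 SBF and MBF targets lie left of the lower line, the SCF ubiquitin ligase and Far3 complex genes lie close to 0, and SRL3 and PCL2 lie far to the right.

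The regulators of Start were mostly within 2-fold. Of 10, NRM1 and MSA2 were lower and XBP1 was higher, with a median log2 ratio of -0.35. NRM1, which encodes a corepressor of MBF and is itself an MBF target, was at 10.69 and 7.55, a log2 ratio of -3.14. MSA2, which encodes an activator of G1/S transcription, had a log2 ratio of -1.23. XBP1, a repressor gene known to act on CLN1, had a log2 ratio of 1.37, and its level in mock cells was 5.90, close to background. The DNA-binding subunits of SBF and MBF, encoded by SWI4 and MBP1, had log2 ratios of -0.84 and -0.14, and WHI5, the target of Cln3-Cdc28, had one of -0.55. Of these, MBP1 and WHI5 were named after their values were seen.

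Among 5 genes known to control Cln3, 1 was higher and none was lower, with a median log2 ratio of -0.15. The higher gene was SRL3, also called WHI7, whose product is related to Whi5 and restrains Start by holding Cln3 at the endoplasmic reticulum. It measured 8.79 in mock cells and 11.90 after alpha factor, a log2 ratio of 3.11. WHI3, whose product binds the CLN3 transcript, had a log2 ratio of -0.78, and YDJ1, a chaperone gene that acts in the release of Cln3, had one of -0.20. Of 8 genes that, like CLN3, are known as targets of Mcm1 at early cell cycle boxes, CDC6 was lower and no gene was called higher. All 8 had a ratio below 1, beside 2879 of the 5337 genes above background, with -0.61 as the median log2 ratio. CLN3, at 0.51, lies above all 8, whose highest log2 ratio was -0.08. CDC6, a replication licensing gene, had a log2 ratio of -2.28. MCM6 (10.23 in mock cells and 9.23 after alpha factor) fell just short of 2-fold, and quantile normalization moved it past the rule for 2 lower genes.

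The other partners of Cdc28 were the B-type cyclins and its direct regulators. Of the 6 B-type cyclin genes, 4 were lower and none was higher, with a median log2 ratio of -1.14. The mitotic cyclin gene CLB1 was at -3.80, the S-phase cyclin gene CLB6 at -3.32 and the mitotic cyclin gene CLB2 at -1.26, all as log2 ratios. CLB5, the main S-phase cyclin gene, chosen for mention with its value known, had a log2 ratio of -1.02 and dropped below the rule when the S. cerevisiae medians of the arrays were set equal or a pseudocount of 32 was added. Either setting left 3 lower B-type cyclin genes and 18 lower SBF and MBF targets. Of 6 genes that set the activity of Cdc28, only SWE1, the inhibitory kinase, passed the rule, with a log2 ratio of -1.63. MIH1, the phosphatase that opposes Swe1, had a log2 ratio of -0.39, PTC3, a phosphatase that acts on Cdc28, had one of -0.36, and the median of the 6 was -0.28.

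The genes of the SCF ubiquitin ligase, which marks the G1 cyclins, Sic1 and Far1 for destruction, were all within 2-fold. Their 7 log2 ratios ran from -0.18 for CDC34, the ubiquitin-conjugating enzyme, to 0.24 for the cullin CDC53, with a median of 0.11. RUB1, the modifier of the cullin, had a log2 ratio of 0.16. Transcript levels do not measure the stability or the phosphorylation of these proteins.

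Of 12 genes for partners and kinases of Far1, 2 passed the rule upwards and none downwards, beside 5.51% and 3.78% of all genes above background. Of the 12, 10 had a ratio above 1, beside 2447 of the 5337 genes above background, and their median log2 ratio was 0.37. FUS3, the MAP kinase that phosphorylates Far1, was at 11.44 and 13.32, a log2 ratio of 1.88. DIG2, whose product restrains Ste12, the transcription factor that controls FAR1, had a log2 ratio of 2.19. STE18, which encodes the G protein gamma subunit that with Ste4 binds Far1 at the cortex, had a log2 ratio of 0.94. FAR1, at 1.25, lies above the median of this list and below FUS3 and DIG2. In the Far3 complex, which acts to keep the pheromone arrest in place, all 6 genes were within 2-fold. Their log2 ratios ran from 0.01 to 0.19, the highest being that of FAR7, followed by 0.13 for FAR11 and 0.11 for FAR3.

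For each of the 4 genes past the 2-fold rule, the genes with the most similar pair of levels were found by the distance between the 2 array values on the log2 scale. With 2 samples this likeness is a description. NRM1 lay nearest to CLN1 at a distance of 0.07, followed by GIC1, which encodes an effector of Cdc42, at 0.14 and the cohesin gene MCD1 at 0.29. Nearest to CLN2 were AIR1 at 0.08, the oligopeptide transporter gene OPT1 at 0.15 and the bud-site gene BUD3 at 0.19. Nearest to FAR1 were RDL1 at 0.09, the chitin synthase gene CHS3 at 0.17 and the sterol reductase gene ERG24 at 0.19. Nearest to SIC1 were the cell wall gene TIR4 at 0.02, ATG41 at 0.04 and CLB2 at 0.05.

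Markers of the cultures and of the RNA were read beside these values. All 6 a-specific genes were above background in both arrays, and 4 of the 5 genes that carry deletions in the strain (BAR1, URA3, LEU2 and MET17, the current name of MET15) were below it in both. The fifth, HIS3, measured 11.80 in mock cells and 12.21 after alpha factor. Since his3Δ1 is a partial deletion, and which part of HIS3 the probe set reads was not examined, this value does not check the label. The 4 alpha-specific genes were also above background in both arrays. Of these, MF(ALPHA)2 and STE3 were higher by 2-fold or more with alpha factor. SAG1, the brightest of the 4 in both arrays, measured 9.53 in mock cells and 9.91 after alpha factor and was not called. MF(ALPHA)1, the major alpha-factor gene, lay only 0.35 and 0.43 above background. The summed linear level of the 4 went from 1091 in the mock array to 2142 in the alpha-factor array. The 8 probe sets of 25S ribosomal RNA had log2 ratios from -5.20 to 0.01, with a median of -0.85. Bright probe sets of this RNA differed among themselves. AFFX-r2-Sc-25SrRNA-3_at went from 14.82 in mock cells to 9.62 after alpha factor, and AFFX-25srRnae_at from 14.63 to 9.79. AFFX-25srRnaa_at stayed at 14.78 and 14.79. The part of these markers in the ratios of the 7 genes was not tested.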

How the data were processed

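The authors deposited log2 expression values for 10928 probe sets, with a column for each of the 2 arrays. The affy package of Bioconductor was used, per the labels' protocols and the processing notes of the submitters. The sources used here do not give how it corrected background, normalized and summarised probes. Values spanned 3.32 to 15.19, and once sorted, the columns were never more than 0.092 apart. Ratios are therefore relative to the average gene, and a change in total mRNA would not be seen.

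Genes were named through the platform annotation, with gene IDs looked up in a RefSeq table (assembly R64). The table gave names and neighbours only, since no build is named for the array. Of the probe sets, 5498 were taken as S. cerevisiae and 1747 as S. pombe, and 3683 were unnamed here. Those taken as S. pombe are named probe sets whose gene ID was not in the RefSeq table. Probe sets annotated with several gene symbols were added to them, and the species of these was not examined. Probe sets of 1 gene were averaged. Deposited log2 values were used without a pseudocount. The neighbours are the nearest protein-coding genes on each side, and strands were read from the W or C in the systematic names.

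The members and lists were chosen with earlier results of these data known. Named are the 7 members, up to 3 genes of each list with the largest ratios in size, those called against their list, the neighbours, and the 3 genes nearest in level to each called member. A planned list and 1 gene of another are not reported here. A planned search of promoters for motifs was not made. The calling rule was tested on simulated data with planted changes well past the 2-fold rule, so that test does not bear on calls near the rule. Alternatives were equal S. cerevisiae or S. pombe medians, a loess fit subtracted, quantile normalization, a pseudocount of 32, the brightest probe set, background at the 90th or 99th percentile, and fold rules of 1.5 and 4. The software was Python 3.11.15 with pandas 2.3.3, numpy 2.4.6 and statsmodels 0.14.6.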

Additional observations from a re-analysis of the deposited data

How the results depend on the processing

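The calls of the 7 genes (CLN1, CLN2 and SIC1 lower, FAR1 higher) were the same genes under 9 of 10 alternatives, the exception being the 4-fold rule, which left 1 lower gene (CLN1) and 0 higher. Under that rule 68 genes of all were higher and 54 lower, and under the 1.5-fold rule 646 were higher and 570 lower, against 294 and 202 as reported. Some alternatives could hardly change a member's call. The brightest probe set left member values as they were, because each member has 1 probe set. The 1.5-fold rule can only add calls. Equal S. cerevisiae or S. pombe medians shifted every log2 ratio alike, by 0.032 or 0.002. Both shifts are smaller than the 0.19 by which SIC1, the called member nearest the rule, passed it. The background settings bear little on the 7 genes, which all lay at least 2.06 above background in both arrays. The pseudocount of 32 moved the log2 ratio of CLN1 to -2.86. No other log2 ratio of a member moved by more than 0.19, the SD of the S. pombe log2 ratios, under the other scalings, and none of the called ones changed sign. Across these settings CLN2 ran from -1.57 to -1.52, SIC1 from -1.21 to -1.15, FAR1 from 1.24 to 1.31 and CLN3 from 0.49 to 0.57, and the median of the members ran from -0.13 to -0.05. The largest shift of the median log2 ratio of all genes under these settings was 0.034. No paired analysis was possible because each group has 1 array, and for the same reason no array could be left out. SIC1 and FAR1 lie near the 2-fold rule, and without replicates their calls cannot be set against the spread between cultures.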
